A study of Homo sapiens with 2 samples.

Results

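The genes described here encode the subunits of potassium channels, and their mRNA levels were read in untreated HEK293T cells. They were chosen by symbol alone, as protein-coding genes whose name in the GRCh37 annotation starts with KCN, followed by a family letter (A to D, F to H, J, K, M, N, Q and S to V, with AB, MA and MB) and a number. The calcium-binding KCNIP proteins, KCNRG and antisense genes were left out. The rule found 85 genes among 19391 protein-coding genes and 57736 genes in all.

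HEK293T is an established human line that was made from embryonic kidney and also expresses SV40 large T antigen. The labels give it as wild type, from kidney, with no treatment. Poly(A)+ RNA of cells grown to near confluence was sequenced in 2 libraries of 50 bp reads, replicate 1 and replicate 2, which form 1 group. No other condition was measured, so the comparisons below are between genes and between the replicates. The labels do not say whether the replicates came from separate cultures, so the spread between them may be technical.

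Potassium channels let K+ leave or enter the cell and set the resting membrane potential. Voltage-gated channels open when the membrane is depolarised and shorten action potentials, inward rectifiers and two-pore-domain channels hold the membrane near rest, and other channels open with internal calcium or sodium. Auxiliary beta subunits form no pore and change how the pore opens. HEK293 cells are widely used as a host for channels introduced from outside, and their own channels are then the background of the recording.

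The pore of every channel type carries a short signature, Thr or Ser, any residue, Gly, Tyr or Phe, Gly, which lines the selectivity filter. It was searched in frame in the longest coding sequence among the listed transcripts of each gene that matched the annotation. It was found in 76 of the 85 genes. All 30 voltage-gated pore genes, all 10 silent modifiers and all 15 two-pore-domain genes held it. It was found in 14 of 15 inward rectifiers and 7 of 8 calcium- or sodium-activated pore genes, and in none of the 3 Kv beta or 4 BK beta genes. For the exceptions among pore genes, KCNJ10 and KCNN4, the coding sequences searched had only 743 and 493 bases. Of their listed transcripts 1 of 2 and 7 of 8 were matched, so a complete coding sequence may have been missed. The signature occurred at least 2 times in 11 of the two-pore-domain genes and once in the others that held it. The stretches below, from the GRCh37 genome on the coding strand, 5′ to 3′, are shown because they identify the pore in detected genes of each pore class, with the 15 signature bases in capitals.
KCNC4, chr1:110766207-110766233, plus strand: atgacgACACTGGGCTACGGAgacatg
KCNQ5, chr6:73814986-73815012, plus strand: ttgacaACTATTGGCTATGGAgacaaa
KCNH2, chr7:150648591-150648617, minus strand: ctcaccAGTGTGGGCTTCGGCaacgtc
KCNG3, chr2:42671248-42671274, minus strand: atgactACAGTTGGCTATGGAgatatg
KCNT2, chr1:196398782-196398808, minus strand: ttttctACTGTGGGCTTCGGGgatgtc
KCNJ8, chr12:21919494-21919520, minus strand: caagttACCATTGGGTTTGGAgggagg
KCNJ13, chr2:233635698-233635724, minus strand: caactcACAATTGGTTATGGTaccatg
KCNK5, chr6:39161952-39161978, minus strand: atctccACCATCGGCTTCGGTgacttt

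Across the 85 genes the first signature had a tyrosine codon in 60 genes and a phenylalanine codon in 16. All 10 silent modifiers had tyrosine, although such subunits form no channel on their own. KCNH2, KCNT2 and KCNJ8 carry the phenylalanine form in the stretches above, and so does the pore loop printed for KCNK5.

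The libraries held 10593491 and 10104118 estimated counts, so a gene with no read may still have had up to 3 counts, or 0.283 CPM in replicate 1 and 0.297 CPM in replicate 2. Such limits cover counting error only. Of 10 markers of differentiated kidney epithelium only LRP2, a receptor of the proximal tubule, was detected in both replicates, at 8.28 and 9.96 TPM, and 6 of the 10 had no read in either, among them UMOD, AQP2, SLC12A3, SLC34A1 and CDH16. The kidney origin in the labels was thus not matched by these markers of differentiated epithelium.

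Most of the potassium channel genes were low. A TPM (the share of transcripts, a level corrected for transcript length and scaled to a fixed total) of at least 1 in both replicates, called detected here, was reached by 25 of the 85 genes (29.4%), against 63.7% of all protein-coding genes. The median TPM of the detected genes was 4.43, against 21.2 for all detected protein-coding genes. A level of 10 TPM in both replicates was exceeded by 2 genes, KCNG1 among them, and 9 genes exceeded 5 TPM in both. Of the 85 genes, 11 had no read in either replicate (12.9%, against 15.8% of protein-coding genes), and 40 had a mean above 0 but below 10 counts. All 85 together held 152.89 TPM in replicate 1 and 150.21 TPM in replicate 2, or 0.0152% ± 0.00019 of the total (SD, n = 2). The 3 highest genes held 31.1% of that sum and the 10 highest held 63.5%.

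**Figure D1:**
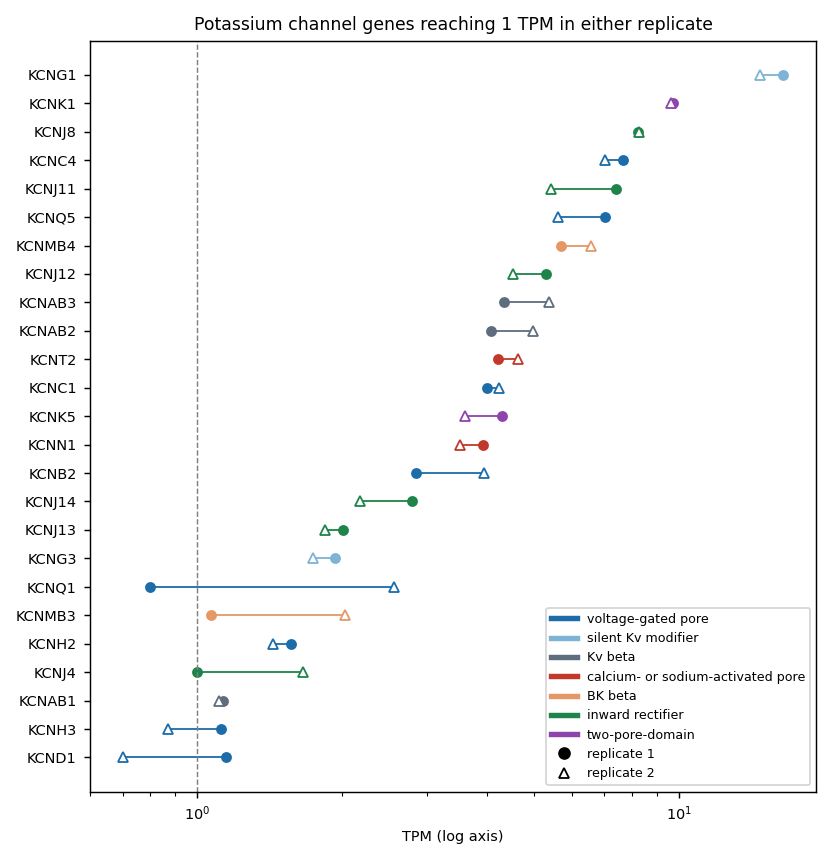
TPM (log axis) of 25 potassium channel genes that reached 1 TPM (dashed line) in at least 1 replicate, ordered by mean and coloured by class, with replicate 1 as filled circles and replicate 2 as open triangles. KCNG1 at 16.51 and 14.80 TPM lies above the other genes shown, and KCNQ1 has the widest gap between replicates.

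Voltage-gated pore subunits made up 30 of the 85 genes and held 40.4% ± 0.0405 of the summed TPM (SD, n = 2), and 8 of them were detected. KCNQ5 (Kv7.5), which carries M-type current in neurons, had 7.04 TPM in replicate 1 and 5.63 TPM in replicate 2, from 180 and 179 estimated counts. KCNQ3, another subunit of M-type channels, had 0 counts in replicate 1 and 1 count in replicate 2. The counts of KCNQ5 were thus close in both replicates, while its assigned transcript length was 3477 nt in replicate 1 and 4471 nt in replicate 2.

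KCNQ1 (Kv7.1), the pore of the slow cardiac repolarising current, had 0.80 TPM in replicate 1 and 2.57 TPM in replicate 2. Its counts, 19.18 and 16.23, went the other way. The transcript length that the deposited tables assign to KCNQ1 was 3245 nt in replicate 1 and 928 nt in replicate 2, so the 3.21-fold higher TPM of replicate 2 went with a shorter assigned length and not with more reads. Part of its reads were shared with other genes, since the counts were not whole. KCNQ1 exons overlap those of KCNQ1OT1 on the other strand over 121 nt. KCNQ1OT1 had 2434 and 2213 estimated counts, and a part of its reads in the KCNQ1 count was not tested.

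Kv3 (KCNC) genes encode fast delayed rectifiers of rapidly firing neurons. KCNC4 had 7.65 and 7.03 TPM from 193 and 175 counts, and KCNC1 had 4.01 and 4.23 TPM from 155 and 164 counts. KCNC4 was above KCNC1 in both replicates with the assigned transcript lengths. With the longest annotated length the order turned, to a mean of 1.34 for KCNC4 and 2.75 for KCNC1 on the TPM scale, and with the median length it turned in replicate 2 (7.08 and 7.53). KCNC2 had 1 count in replicate 2 and none in replicate 1. KCNB2 (Kv2.2), a delayed rectifier, had 2.85 and 3.94 TPM from 75 and 100 counts.

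The Kv1 (KCNA) and Kv4 (KCND) families were not detected. None of the 8 KCNA genes reached 1 TPM in either replicate, and the highest, KCNA7, had 13 and 12 counts and 0.40 and 0.39 TPM. KCNA4 and KCNA5 had no read. Of the 3 KCND genes, which carry the transient A-type current, KCND1 passed 1 TPM in replicate 1 only (1.15 against 0.70 TPM, with 29 and 22 counts), KCND3 had 8 and 9 counts and KCND2 had no read. Among the 8 ether-a-go-go (KCNH) genes, KCNH2 (hERG), the pore of the rapid cardiac repolarising current, was detected at 1.57 and 1.44 TPM from 44 and 38 counts. KCNH3 passed in replicate 1 only, with 1.12 and 0.87 TPM although its counts were 22 and 24.

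**Figure D2:**
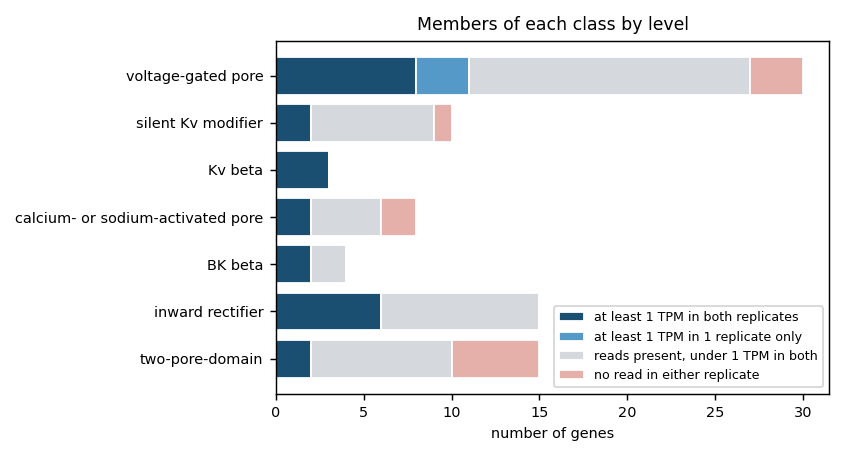
Number of genes in each class of potassium channel subunit, split by level: at least 1 TPM in both replicates, in 1 replicate only, reads present but under 1 TPM in both, or no read. All 3 Kv beta genes were detected, 6 of 15 inward rectifiers and 2 of 15 two-pore-domain genes, and 5 of the latter had no read.

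Silent Kv modifiers (KCNF, KCNG, KCNS, KCNV) reach the membrane only together with Kv2 subunits and change their gating. Of 10 such genes 2 were detected. KCNG1 (Kv6.1, ENSG00000026559, chr20:49620193-49639644, minus strand) was among the 3 highest of all 85 genes, with 16.51 and 14.80 TPM from 235 and 190 counts. KCNG3 had 1.93 and 1.74 TPM. KCNG4 had no read, and KCNS3 was the highest of the KCNS genes at 0.47 and 0.64 TPM. KCNG1 was thus higher in both replicates than its possible partner KCNB2, whose highest value was 3.94 TPM. KCNG1 exons overlap an unnamed antisense gene over 434 of their 5415 nt, and the strand setting of the counting was not stated in the sources read.

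All 3 Kv beta genes, cytoplasmic subunits related to aldo-keto reductases that bind Kv1 channels, were detected, whereas none of the 8 Kv1 pore genes was. KCNAB3 had 4.34 and 5.37 TPM from 40 and 50 counts. KCNAB2 had 4.07 and 4.98 TPM, although its counts fell in the other direction, 73.28 and 57, with an assigned length of 2464 nt in replicate 1 and 1643 nt in replicate 2. KCNAB1 had 1.13 and 1.11 TPM. The ranges of KCNAB3 and KCNAB2 overlapped, and both lay above KCNAB1 with the assigned lengths. With the median annotated length the means turned, to 7.13 for KCNAB1, 6.89 for KCNAB2 and 5.93 for KCNAB3 on the TPM scale.

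Among the 8 genes classed by symbol as calcium- or sodium-activated pores 2 were detected. KCNT2 (Slick), a sodium-activated channel, had 4.21 and 4.65 TPM from 123 and 134 counts, and its paralog KCNT1 (Slack) had 0.42 and 0.34 TPM from 12 and 10 counts. KCNN1 (SK1), a small-conductance calcium-activated channel, had 3.93 and 3.52 TPM from 55 and 40 counts. KCNN3 (SK3) had 24 and 19 counts but 0.56 and 0.29 TPM. KCNN4, the intermediate-conductance channel of blood cells and epithelia, had no read, nor did KCNU1, the channel of sperm. KCNMA1, the pore of the large-conductance BK channel, had 8 counts in each replicate and 0.65 and 0.36 TPM.

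Of the 4 BK beta subunits, which change the calcium and voltage dependence of BK, 2 were detected. KCNMB4, the neuronal form, had 5.69 and 6.57 TPM from 96.02 and 105.01 counts, and was above KCNMA1 in both replicates. KCNMB3 had 1.07 and 2.03 TPM from 10.04 and 18.06 counts. KCNMB3 exons overlap those of PIK3CA on the other strand over 3403 nt, more than for any other detected potassium channel gene, and a part of these reads in its count was not tested. KCNMB2 had 2 and 5 counts, and KCNMB1 1 count in replicate 1 only.

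Inward rectifiers (KCNJ) were the second largest class by level, with 17.6% ± 1.46 of the summed TPM (SD, n = 2). Each of the 15 genes had at least 1 count in at least 1 replicate, and 6 were detected. KCNJ8 (Kir6.1, ENSG00000121361, chr12:21917889-21928534, minus strand), a pore of ATP-sensitive channels in vascular muscle, had 8.25 and 8.27 TPM from 144 and 139 counts. KCNJ11 (Kir6.2), the pore of the ATP-sensitive channel of pancreatic beta cells, had 7.41 and 5.43 TPM from 81 and 65 counts. KCNJ8 was higher than KCNJ11 in both replicates, except that with the median annotated length KCNJ11 was higher in replicate 1 (14.8 against 14.4 on the TPM scale). Both need a sulfonylurea receptor, and of these ABCC8 (SUR1) was detected at 1.71 and 1.46 TPM while ABCC9 (SUR2) had 0.27 and 0.43 TPM.

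The strong inward rectifiers of the Kir2 type were represented by KCNJ12 (Kir2.2), with 5.30 and 4.54 TPM from 206 and 175 counts, KCNJ14 (Kir2.4), with 2.79 and 2.18 TPM from 64 and 48 counts, and KCNJ4 (Kir2.3), with 1.00 and 1.66 TPM from 15 and 24 counts. KCNJ2 (Kir2.1) had 6 counts in each replicate and at most 0.17 TPM. The order KCNJ12, KCNJ14, KCNJ4 was the same in both replicates. KCNJ18, a near-identical copy of KCNJ12, was not analysed here, so reads of this copy and of KCNJ12 cannot be told apart. KCNJ13 (Kir7.1), a channel of transporting epithelia, had 2.01 and 1.84 TPM, and its exons overlap those of GIGYF2 on the other strand over 810 nt. Among G protein-gated rectifiers KCNJ3 was highest, with 0.90 and 0.28 TPM from 15 and 10 counts, and KCNJ5, KCNJ6 and KCNJ9 had at most 2.01 counts. The kidney channels KCNJ1 (ROMK) and KCNJ16 had at most 4 counts.

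Two-pore-domain channels (KCNK) carry background current. Only 2 of the 15 genes were detected and 5 had no read, KCNK2, KCNK10, KCNK16, KCNK17 and KCNK18, of which KCNK2 and KCNK10 encode the mechanosensitive channels TREK1 and TREK2. KCNK1 (TWIK1, ENSG00000135750, chr1:233749852-233808260, plus strand) had 9.76 and 9.65 TPM from 95 and 102 counts. KCNK5 (TASK2), opened by alkaline pH and known from the proximal tubule, had 4.30 and 3.60 TPM from 119 and 96 counts. KCNK1 was above KCNK5 in both replicates on the TPM scale, whereas their counts, which do not correct for length, were close. KCNK3 (TASK1) had 1 count in replicate 1 and KCNK9 (TASK3) 1 count in each replicate.

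**Figure D3:**
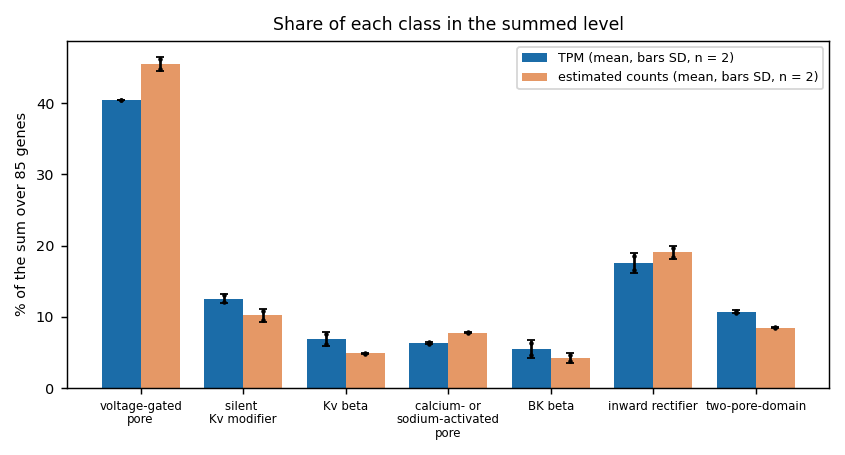
Share of each class in the level summed over the 85 genes, as a percentage, in TPM (blue) and in estimated counts (orange). Bars are means with SD (n = 2) and dots are the replicates. Voltage-gated pore genes held 40.4% of the TPM and 45.5% of the counts, and inward rectifiers 17.6% and 19.0%.

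For the 11 genes with no read the limit of 3 counts corresponded to 0.143 to 0.423 TPM, depending on the length of the gene, so a level below these limits was not detectable here. These genes were KCNA4, KCNA5, KCND2, KCNG4, KCNK2, KCNK10, KCNK16, KCNK17, KCNK18, KCNN4 and KCNU1.

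In the order of the 25 detected genes, 17 of the 24 pairs of neighbours had replicate ranges that overlapped. KCNG1 was apart from both of its neighbours. With the assigned lengths KCNJ8 lay below KCNK1 and above KCNC4, with no overlap. With the longest lengths KCNJ8 lay above KCNK1, at means of 8.26 and 6.61 on the TPM scale. From KCNJ12 at 4.92 ± 0.537 TPM down to KCNB2 at 3.40 ± 0.771 TPM (SD, n = 2), each of the 8 genes overlapped its neighbour, so no order among neighbours there can be read.

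The level of a gene also depends on the transcript length assigned to it, and for several genes this moved the level by more than the replicates differed. With the longest annotated length of each gene in place of the assigned one, KCNC4 fell from 7.34 to 1.34 on the TPM scale and from rank 6 to rank 20 of 85, with 18750 nt in place of 3431 and 3514 nt. KCNG1, given 1956 and 1836 nt, fell from 15.7 to 7.89 with 3722 nt. KCNJ8, whose assigned length is already the longest, had 8.26 on this scale and the first rank, in place of rank 5, and KCNG1 had the second. The gene-level values used do not say which transcript was present, so the order of the highest genes rests on the assigned lengths.

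**Figure D4:**
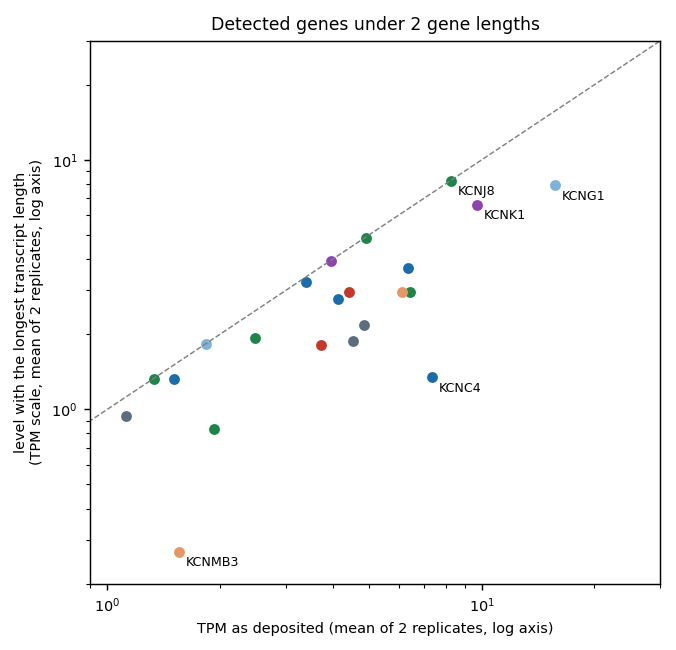
Mean level of 22 detected genes with the transcript length assigned in the deposited tables (x axis, TPM) and with the longest annotated transcript (y axis, TPM scale), both log axes, coloured by class as in the plot of levels. KCNJ8 stays on the dashed line of equality, while KCNC4 drops from 7.34 to 1.34 and KCNMB3 from 1.55 to 0.27.

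The libraries were compared by an exact binomial test of the rounded counts against library size, which compares these 2 libraries and not conditions. Of the 42 potassium channel genes whose counts summed to 10 or more, 0 differed at an adjusted p of 0.05, against 3.88% of all 17920 genes tested. At an unadjusted p under 0.05 there were 2, or 4.76% against 13.3% of all genes tested. The lower p was that of KCNB2 (exact p = 0.028, adjusted p = 0.278), which was higher in replicate 2. A gene that misses the threshold is not shown to be equal in both libraries.

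On the log2(TPM + 1) scale the detected genes differed between replicates by a median of 0.15, against 0.12 for all detected protein-coding genes. The largest difference, 0.55, was that of KCNMB3. Across the 85 genes Pearson's r was 0.977, given as a description, since the points share the 2 libraries and genes are not replicates.

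Among the 59 genes with at least 1 count in each replicate, TPM differed more than 1.5-fold in 18 and counts in 9. In 10 genes TPM differed by more than 1.5-fold while counts stayed within it, among them KCNQ1, KCND1, KCNJ3, KCNMA1, KCNN3, KCNK12, KCNK9, KCNJ1 and KCNA1, and 5 of these had at least 10 counts in both replicates. KCNA1 had 1 count in each replicate but 0.26 and 0.02 TPM, with assigned lengths of 567 and 7976 nt. KCNJ3 was given 2291 nt in replicate 1 and 5021 nt in replicate 2. None of the 25 detected genes was among the 10.

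**Figure D5:**
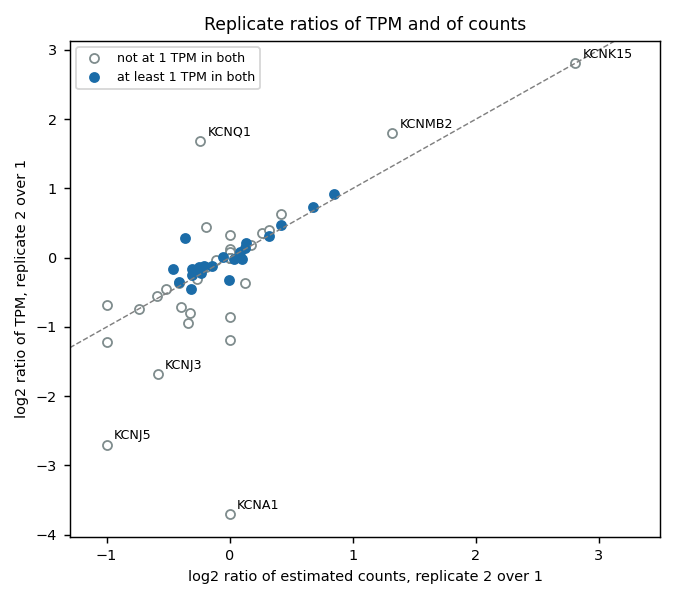
Log2 ratio of replicate 2 over replicate 1 in TPM (y axis) against that in estimated counts (x axis) for 55 genes with at least 1 count in each replicate. Filled points are detected genes and open points the others. The dashed line marks equal ratios. KCNQ1 lies above it, at 3.21-fold more TPM with fewer counts, and KCNA1 and KCNJ3 lie below.

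Some potassium channel genes are neighbours in the genome. Of 14 pairs of consecutive genes within 500 kb on one chromosome, both were detected in 1 pair, KCNJ11 and KCNC1 on chromosome 11, at 6.42 and 4.12 TPM and 345.4 kb apart. In 3 pairs 1 gene was detected and in 10 neither. Since only 29.4% of the 85 genes were detected, pairs with both detected are few in any case, and nothing about neighbouring genes is read from this count. On chromosome 6, KCNK5 at 3.95 TPM lies 69.5 kb from KCNK17 and on to KCNK16, which had no read. On chromosome 1, KCNC4 at 7.34 TPM lies 234.1 kb from KCNA10, followed by KCNA2 and KCNA3, all 3 at or below 0.04 TPM on average.

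Genes that act with potassium channels or beside them were taken from lists of 55 genes, of which 21 were detected. None of the 5 KCNE genes, single-span partners of KCNQ1 and hERG, was detected. KCNE1 was the highest with 8 and 6 counts and 0.51 and 0.42 TPM. Among 6 partners of Kv4 channels, KCNIP2 (3.46 and 1.52 TPM), KCNIP3 (1.67 and 1.82 TPM) and KCNIP4 (1.16 and 1.33 TPM) were detected, while DPP6 and DPP10 had no read. None of the 4 BK gamma genes was detected, and 3 had no read. These 3 KCNIP genes were detected, while no Kv4 pore gene passed in both replicates.

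Of the 4 HCN genes, cation channels opened by hyperpolarisation, HCN2 had 8.19 and 9.10 TPM and HCN3 had 6.80 and 5.83 TPM. Of 10 sodium channel pore genes 3 were detected, among them SCN8A with 3.06 and 1.57 TPM and SCN9A with 1.10 and 1.77 TPM. Of 10 calcium channel pore genes 2 were detected, the highest being CACNA1H with 8.69 and 8.21 TPM. These levels lay within the range of the detected potassium channel genes.

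The transporters that build the potassium gradient were far higher. Of 7 sodium pump genes 5 were detected. The beta subunit ATP1B3 had 163 TPM in both replicates, which exceeded the summed TPM of all 85 potassium channel genes. Of 7 cation-chloride cotransporters 5 were detected, led by SLC12A2 (NKCC1), which brings potassium into the cell, with 17.8 and 19.8 TPM. The potassium chloride exporters SLC12A4, SLC12A5 and SLC12A7 had 5.89 to 10.5 TPM. The 5.89 and 6.12 TPM of SLC12A5 came from only 17.21 and 20.9 counts, with short assigned lengths of 440 and 523 nt. SLC12A4 had 149.06 and 137.83 counts, and SLC12A7 had 329 and 276.

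Exons of 32 of the 85 genes, and of 10 of the 25 detected genes, overlap those of another gene, so their counts could hold reads of the other gene if strand was not used. Without them 15 detected genes remained, KCNK1, KCNC4 and KCNJ11 among them. All values are of mRNA in bulk cells, so fewer cells with a transcript and less of it per cell cannot be told apart.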

How the data were processed

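Poly(A)+ RNA of HEK293T cells was sequenced in 2 libraries (NEBNext Ultra II). Per the submitters' processing notes, the authors used Trimmomatic 0.36, STAR 2.6.1c and RSEM 1.3.1 with GRCh37, whereas the study's methods name featureCounts; the columns are those of RSEM and were read so. Estimated counts were deposited by the authors and share out reads that fit several genes, which leaves paralogs and overlapping genes uncertain. TPM and FPKM values, also deposited by the authors, are scaled by an assigned transcript length. Bounds of the TPM interval and the lengths are scores deposited by the authors. The table of the pooled reads holds the authors' values. The strand setting was not given in the sources used here.

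Symbols, types, coordinates and transcript lengths came from GENCODE release 44 mapped to GRCh37, with 96.1% of gene identifiers and 94.7% of the listed transcripts of the 85 genes matched. For every gene the longest annotated length was taken as the larger of its longest listed length and its assigned lengths. In some genes, such as KCNG3 with 3725 nt, it was thus an assigned length. A gene was called detected where both replicates had 1 TPM or more. An exact binomial test, two-sided (scipy 1.17.1), compared counts rounded to whole numbers between the libraries against TMM-scaled library sizes (edgeR 4.0.16, R 4.3.3), with Benjamini-Hochberg adjustment over all genes whose counts summed to 10 or more. It was tested on simulated data in which only genes with high counts were changed. The simulation therefore does not show the power for most potassium channel genes, whose counts were lower. With 1 group no test between conditions was possible. Genes named are those detected, those that passed in 1 replicate only, those with no read, the highest of each class and those of the lists. Further genes are named as paralogs or family members of these, or because assigned lengths changed their TPM, and were chosen after their values were seen. Some genes that this rule would name are not reported here and are left out of the plots by gene. The genes and lists were chosen with earlier results of these data known. Alternatives were other thresholds and units, lengths, normalizations, filters and leaving out each replicate.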

Additional observations from a re-analysis of the deposited data

How the results depend on the processing

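The number of detected potassium channel genes, 25, was 51 at a threshold of 0.1 TPM, 9 at 5 TPM and 15 without genes whose exons overlap another gene. It was 26 to 27 without either replicate, and stayed within 1.5 times under the other settings, from 21 with the longest transcript lengths to 36 with posterior mean TPM. Posterior means also passed genes with no read, such as KCNK2 (1.09 and 1.12) and KCNN4 (1.16 and 1.20), so the 36 is not read as expressed genes. The share of the 85 genes in all TPM, 0.0152%, was 0.0273% in counts, 0.0218% of protein-coding TPM and 0.019% with posterior means, and 0.015% to 0.0153% without either replicate. The class shares, in the order counts, posterior mean TPM, longest length and median length, were 45.5%, 36.5%, 30.8% and 28.1% for voltage-gated pores. For inward rectifiers they were 19.0% in counts, 25.3% with the longest and 22.7% with the median length. For silent modifiers they were 10.2% in counts, 10.6% with posterior means and 17.8% with the median length, and for two-pore-domain genes 8.47%, 11.9% and 14.2% in counts, posterior means and the longest length. The detected genes of the lists numbered 34 at 0.1 TPM. The length settings, the removal of overlapping genes and, for the genes with no read, the pooled table were chosen after seeing the data. No potassium channel gene differed between the libraries under any of 5 other normalizations or filters, and 2 to 3 had an unadjusted exact binomial p under 0.05. In all, 20 values moved and 41 did not. No paired analysis was possible because both samples form 1 group. The planned comparison of promoter CpG content was void, since only 72.9% of the 85 genes had a promoter window, under the minimum of 80%, and was not run. Depth limits the genes under 10 counts, for which single reads decide the level.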

Other observations

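Long noncoding genes whose symbol starts with KCN were counted apart from the channels. They include some named after KCNIP genes, such as KCNIP2-AS1. Of these 24 long noncoding genes 3 were detected and 13 had no read. KCNQ1OT1, the imprinted transcript antisense to KCNQ1, had 2434 and 2213 estimated counts against 19.18 and 16.23 for KCNQ1, while its level per length was 3.56 and 3.36 TPM over 91667 nt. KCNJ5-AS1 was detected at 1.72 and 1.09 TPM from 31 and 28 counts, with KCNJ5 itself at 2 and 1 counts. KCNMB2-AS1 was detected at 3.58 and 1.53 TPM from 12 and 6 counts, beside KCNMB2 at 2 and 5 counts.

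In 27 of the 85 genes, among them the 11 with no read, the lower bound of the deposited TPM interval lay above the deposited TPM in both replicates. KCNJ15, with 1 and 0 counts, had lower bounds of 1.92 and 1.98. These bounds therefore were not read as evidence of expression.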
